A study of Olea europaea with 36 samples.

Results

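EDL2 was 1 contig, Contig_40482, of the 37449 olive contigs on a 1-colour NimbleGen oligonucleotide array. The contig was taken by its identifier, and its name comes from the study, which gives it as the putative ortholog of Arabidopsis EDL2 (EID1-like 2). It was selected on its array levels in the varieties Arbosana and Chiquitita, which differed, and in ChiCa, a seedling pool not called different from Chiquitita, and the groups set side by side below were picked with its levels in view. The levels of the varieties, the internode pools and dormant Picual are therefore described with no test, and so are the differences between ChiCa and other pools. Tests are given only between the trunk diameter pools and between the complex and simple branching pools.

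F-box proteins are the part of SCF ubiquitin ligases that recognises the proteins to be tagged for degradation. In Arabidopsis, EID1 is an F-box protein that dampens light signalling through phytochrome A, the photoreceptor for far-red light, and EDL2 is one of its relatives. What the protein does in olive is not given by the files.

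The shoot tips came from field-grown trees of the olive breeding program of Cordoba, harvested in late spring, with 3 arrays for each of 12 groups. The varieties Arbequina, Arbosana, Chiquitita and Picual were each sampled as active tips, and Picual also as dormant tips. Chiquitita, a shrubby variety with a compact and weeping canopy, was itself bred from Picual × Arbequina. Pools of Picual × Arbequina seedlings had short internodes (SILe), long internodes (LILe), small trunk diameter (SmaD) or large trunk diameter (LarD). Pools of Chiquitita × Arbosana seedlings had a canopy like that of Chiquitita (ChiCa), complex branching (Complex) or simple branching (Simple). Each pool mixed tissue of a few seedlings before RNA extraction, so the arrays give no spread between seedlings. The arrays of a group were separately harvested samples, and whether those of a variety came from different trees is not stated, so a p-value here speaks only of the scatter among such samples. A tip holds many cell types, and a lower level in fewer cells cannot be told apart from less RNA per cell.

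Values are RMA-normalized intensities as deposited, with their log2 taken for means and differences. Over the 36 arrays, log2 medians lay between 9.25 and 9.64, and replicates of a group correlated at r of 0.947 to 0.992 outside SILe. SILe replicate 3 stood apart, with r of 0.840 and 0.842 to its replicates, so the SILe mean and what rests on it are also given without it. The labels of SILe replicate 2 and of dormant Picual replicate 2 carry an unexplained mark "(R)". SmaD replicates 2 and 3 are labelled with short internodes in one field and were used as SmaD by their titles. Background signal was not examined, so it is not known how far the lowest EDL2 intensities stood above it, and precision is limited by how few arrays there are.

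EDL2 was lowest in Chiquitita and highest in dormant Picual, with the other groups spread between them in small steps. The 36 arrays ran from 68.5 to 1179 in intensity, and the highest of the 33 arrays of active tips was 532.5. The group means, taken on the log2 scale, spanned 8.29-fold over all 12 groups and 3.98-fold over the 11 active groups. Over all 12 groups this span was wider than that of 94.9% of contigs, and the median span over all contigs was 2.40-fold. Over the 11 active groups it was wider than that of 85.9%, with a median of 2.155-fold. The contig was also somewhat noisy, with a within-group SD of 0.53 on the log2 scale, above that of 64.5% of contigs. Differences between groups made up 77.3% of its sum of squares, against a median of 47.3% over all contigs. A difference between Chiquitita, the lowest group, and Arbosana chose the contig, so part of the wide span and of this share belongs to that choice.

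From low to high, the mean log2 levels (± SD, n = 3) began with Chiquitita at 6.80 ± 0.78, Simple at 7.11 ± 0.56, ChiCa at 7.51 ± 0.48 and LILe at 7.68 ± 1.09. Chiquitita, the simple branching pool and the pool with a canopy like that of Chiquitita thus made up the low end. LILe joined them through replicate 2 alone, since without that array its mean was 8.31, between Arbequina and active Picual. The middle held Arbequina at 8.16 ± 0.31, active Picual at 8.36 ± 0.38, Complex at 8.45 ± 0.35 and LarD at 8.56 ± 0.18. Arbosana at 8.61 ± 0.10, SmaD at 8.70 ± 0.40 and SILe at 8.79 ± 0.44 followed, and dormant Picual stood at 9.85 ± 0.49. No step between neighbours in this order exceeded their pooled SD, and their arrays overlapped, until the last one. The step from SILe to dormant Picual was 1.06 on the log2 scale against a pooled SD of 0.47, and no array of one group reached those of the other. The share of contigs for which these groups do not overlap was not counted. Without SILe replicate 3 the SILe mean was 8.66, between Arbosana and SmaD, and the step from SILe to dormant Picual was 1.19.

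**Figure D1:**
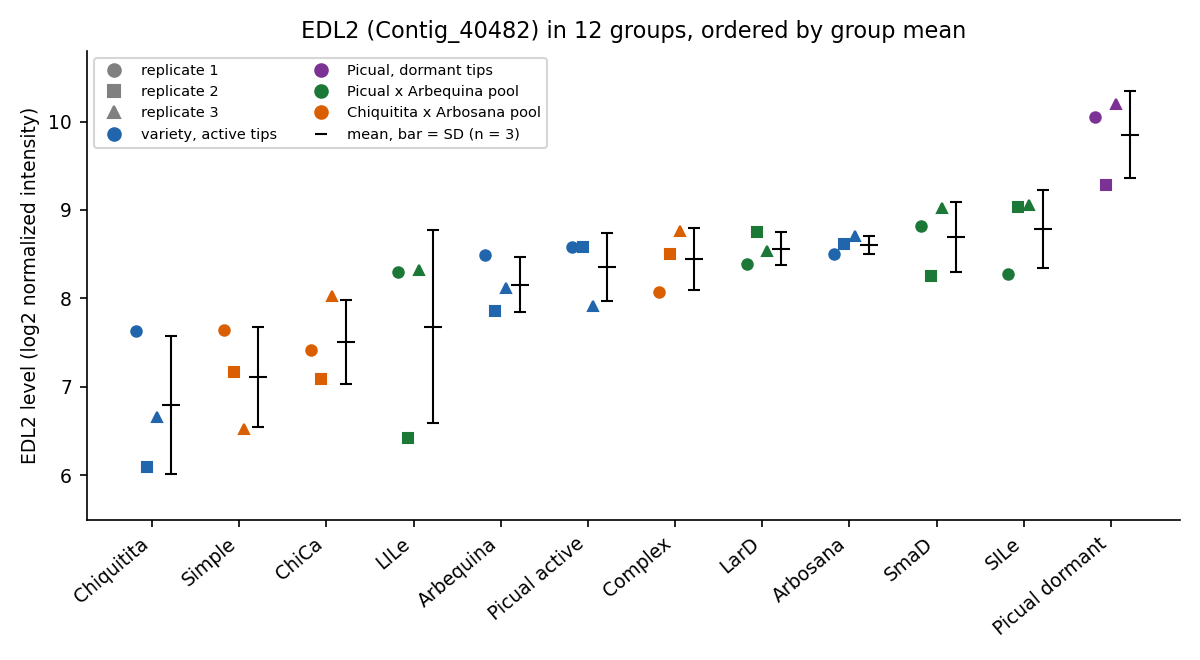
EDL2 level (log2 normalized intensity, vertical axis) on each of the 36 arrays, by group in the order of the group means (horizontal axis); symbols give the replicate number, colours the kind of sample, and black bars the mean ± SD of 3 arrays. Chiquitita is lowest at 6.80, dormant Picual highest at 9.85, and LILe and Chiquitita show the widest spread.

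The varieties were the samples in which EDL2 had been noticed. In Chiquitita the 3 arrays read 199, 68.5 and 101 in intensity. In Arbosana they read 362, 391 and 418. The Arbosana arrays lay close together, 1.15-fold from lowest to highest, whereas those of Chiquitita lay 2.90-fold apart, and the groups did not overlap. EDL2 was 3.50-fold lower in Chiquitita than in Arbosana, a difference of -1.81 on the log2 scale, and with any 1 array left out it stayed between -2.23 and -1.46. This contrast chose the gene. Large gaps between these varieties were common, since 11% of contigs had every Chiquitita array below every Arbosana array, and 16.5% of contigs differed at least 2-fold.

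Active Picual and Arbequina, the parents of Chiquitita, gave middle levels of EDL2. Active Picual read 383, 383 and 241, and Arbequina 359, 233 and 278. These arrays overlapped, and the means differed by 0.20 on the log2 scale, less than the pooled SD of 0.35. Every Chiquitita array lay below every array of either parent, as was so for 7.36% of contigs against active Picual and 13.2% against Arbequina. The level in Chiquitita was 2.95-fold lower than in active Picual and 2.56-fold lower than in Arbequina. Leaving out 1 array kept the direction of both, between 2.32-fold and 3.94-fold against active Picual and between 2.01-fold and 3.43-fold against Arbequina. Arbosana sat slightly above both, by 0.25 over active Picual with overlapping arrays and by 0.45 over Arbequina without overlap, as for 14.8% of contigs in that direction.

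ChiCa, the pool with a canopy like that of Chiquitita, also read low. Its arrays gave 170, 136 and 261, all below those of Arbosana, as was the case for 14.2% of contigs. The ChiCa mean was 2.14-fold below Arbosana, and between 1.85-fold and 2.56-fold below it with 1 array left out. ChiCa and Chiquitita overlapped, with Chiquitita 1.64-fold the lower, a difference of -0.71 against a pooled SD of 0.65. Without Chiquitita replicate 2 that difference shrank to -0.36, and without Chiquitita replicate 1 it widened to -1.13. That ChiCa resembles Chiquitita here belongs to the criterion by which the contig was picked.

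**Figure D2:**
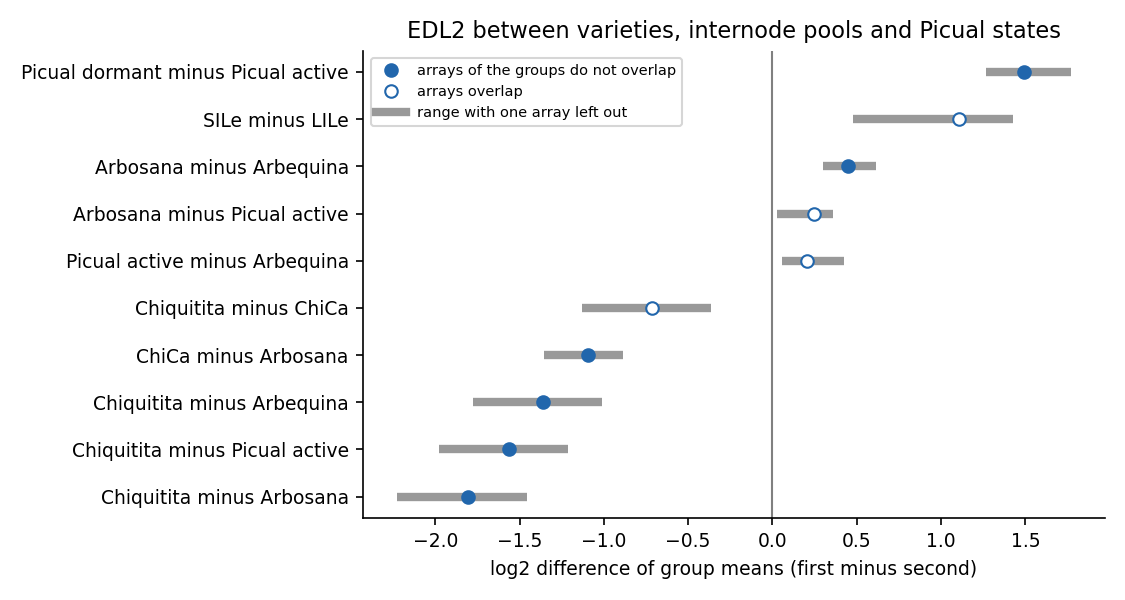
Differences of EDL2 group means on the log2 scale (horizontal axis, first group minus second) for the 10 described comparisons (vertical axis); filled points mark groups whose arrays do not overlap, open points groups that overlap, and grey bars the range with 1 array left out. No bar crosses 0, and the bar of SILe minus LILe is the widest above 0, reaching down to 0.48.

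The dormant tips of Picual carried more EDL2 signal than any active sample. Their arrays read 1063, 625 and 1179 in intensity, against 383, 383 and 241 in active Picual. Replicate 2, the dormant array with the unexplained mark, was the lowest of the dormant arrays and still above all 33 arrays of active tips. The mean was 2.81-fold higher in dormant than in active tips, 1.49 on the log2 scale with a pooled SD of 0.44. Without dormant replicate 2 the difference was 1.77, and the smallest value, 1.27, came without active replicate 3. All dormant arrays lay above all active Picual arrays for 14.4% of contigs, and 20.5% of contigs differed at least 2-fold between these tips. The share of contigs with all dormant arrays above all 33 active arrays was not counted. Dormancy was sampled in Picual alone.

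The internode pools differed in mean but not array by array. SILe read 311, 523 and 532.5, and LILe read 316, 85.9 and 319. LILe replicate 2 was the 1 low array, 3.71-fold below the highest of its group, and the remaining LILe arrays lay next to SILe replicate 1. The mean was 2.15-fold higher in SILe, 1.11 on the log2 scale against a pooled SD of 0.83. Without LILe replicate 2 the difference fell to 0.48, or 1.39-fold. Without SILe replicate 3, the array that stood apart, it was 0.97. SILe had the highest mean of the active groups only with replicate 3 included, since SmaD stood above it otherwise. In this pair of pools the arrays of 7.3% of contigs did not overlap, and those of EDL2 were not among them.

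Between the trunk diameter pools, a contrast that had no part in picking the gene, no difference in EDL2 passed the test. SmaD read 452, 305 and 519, and LarD read 335, 432 and 372. The arrays overlapped, as they did for all but 24.2% of contigs. SmaD exceeded LarD by 0.14 on the log2 scale (SE 0.37), with a 95% interval from -0.69 to 0.96 (limma, adjusted p = 0.893). This fit took its spread from Chiquitita as well, and on the 6 arrays of SmaD and LarD alone the SE was 0.25 and the interval ran from -0.44 to 0.71 (limma, adjusted p = 0.799). EDL2 was not called at an adjusted p under 0.05 and a difference of at least 2-fold, and 5 contigs in all were, or 0.0134%. Without SmaD replicate 3 the difference was -0.02, so its direction rested on that array, and SmaD replicate 1 alone, the array whose labels all name trunk diameter, gave 0.26.

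Among the pools of the Chiquitita × Arbosana cross, EDL2 was highest in Complex. Complex read 269, 362 and 434, whereas Simple read 200, 144 and 91.9. All 3 Complex arrays lay above all 3 Simple arrays, which was so for 4.25% of contigs. The mean was 2.52-fold higher in Complex, with a 95% interval from 1.5-fold to 4.25-fold, or 1.33 on the log2 scale (SE 0.34). EDL2 was nevertheless not called (limma, adjusted p = 0.353), while 21 contigs, or 0.0561%, were. The ChiCa arrays shared in the spread of this fit, and on the 6 arrays of Complex and Simple alone the interval ran from 0.58 to 2.09 on the log2 scale (limma, adjusted p = 0.473). A difference at least as large in either direction was seen in 0.897% of contigs, and 7.12% had an unadjusted p under 0.05. The methods' t-test, which carries no adjustment, passed EDL2 among 388 contigs on log2 values, and after Benjamini-Hochberg adjustment it passed 0 contigs.

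ChiCa stood between these pools, nearer to Simple. Every ChiCa array lay below every Complex array, as for 5.43% of contigs, and the highest ChiCa array, 261, came close to the lowest of Complex, 269. ChiCa was 1.91-fold lower than Complex, at -0.93 on the log2 scale, and between -1.19 and -0.72 with 1 array left out. Against Simple, ChiCa was 0.40 higher with overlapping arrays, and between 0.11 and 0.67 higher with 1 array left out. The ChiCa levels took part in the choice of the contig, so these differences carry no test.

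**Figure D3:**
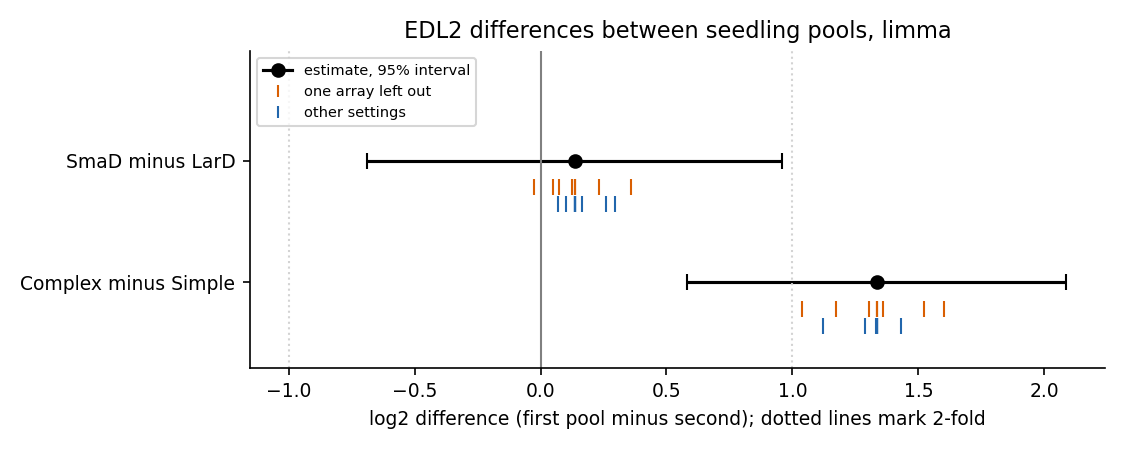
EDL2 differences between seedling pools on the log2 scale (horizontal axis, first pool minus second) for both tested comparisons (vertical axis); black points and bars give the limma estimate with its 95% interval, orange ticks the estimate with 1 array left out and blue ticks the other settings. The interval of Complex minus Simple runs from 0.58 to 2.09 and that of SmaD minus LarD from -0.69 to 0.96.

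Part of the spread between replicates was common to several groups. A single direction through all contigs held 23.6% of the within-group variance over the 33 arrays outside SILe, and the EDL2 deviations from the group means correlated with it at r = -0.385. A like direction was also fitted without SILe, ChiCa, Complex and Simple. Along it the Complex arrays lay between -38.6 and 40.2, those of Simple between -9.89 and 59.0 and those of ChiCa between -30.0 and 55.1. These ranges overlapped. By the middle array of each pool, Complex lay lowest at 4.02, then ChiCa at 32.9 and Simple at 38.0, the reverse of their EDL2 order. The part of such directions in the EDL2 differences was not tested.

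Read by descent, Chiquitita lay below its parents, whereas the pools of the same cross did not, apart from LILe replicate 2. The midpoint of active Picual and Arbequina was 8.26 on the log2 scale, and the 6 parental arrays ran from 233 to 383 in intensity. Chiquitita lay 2.75-fold below the midpoint, with 3 of 3 arrays under all parental arrays. SILe was 0.53 above it (0.40 without replicate 3), SmaD 0.44 above and LarD 0.30 above, with 2, 2 and 1 of their 3 arrays over all parental arrays. LILe was 0.58 below through replicate 2, the 1 array under the parental range, and without that array it was 0.05 above the midpoint. Of the 12 arrays of these pools, LILe replicate 2 alone fell among the Chiquitita arrays. The pools were mixtures of genotypes and Chiquitita a single one. All Chiquitita arrays lay below those of active Picual for 7.36% of contigs and below those of Arbequina for 13.2%. The shares of contigs outside the arrays of both parents were not counted, so nothing is read from the array counts. The low level of Chiquitita against Arbosana also took part in choosing the contig.

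In the Chiquitita × Arbosana cross the parents themselves were far apart, and the pools fell between them. On a scale from 0 at the Chiquitita mean to 1 at the Arbosana mean, Simple stood at 0.17, ChiCa at 0.39 and Complex at 0.91. Complex replicate 3, at 434, was the single pool array above the parental range, and no pool array fell below it. ChiCa thus lay nearer to the midpoint than to either parent. Its levels took part in the choice of the contig, whereas Simple and Complex played no role in that choice. The gap between the parents also chose the contig, and it sets both ends of this scale.

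**Figure D4:**
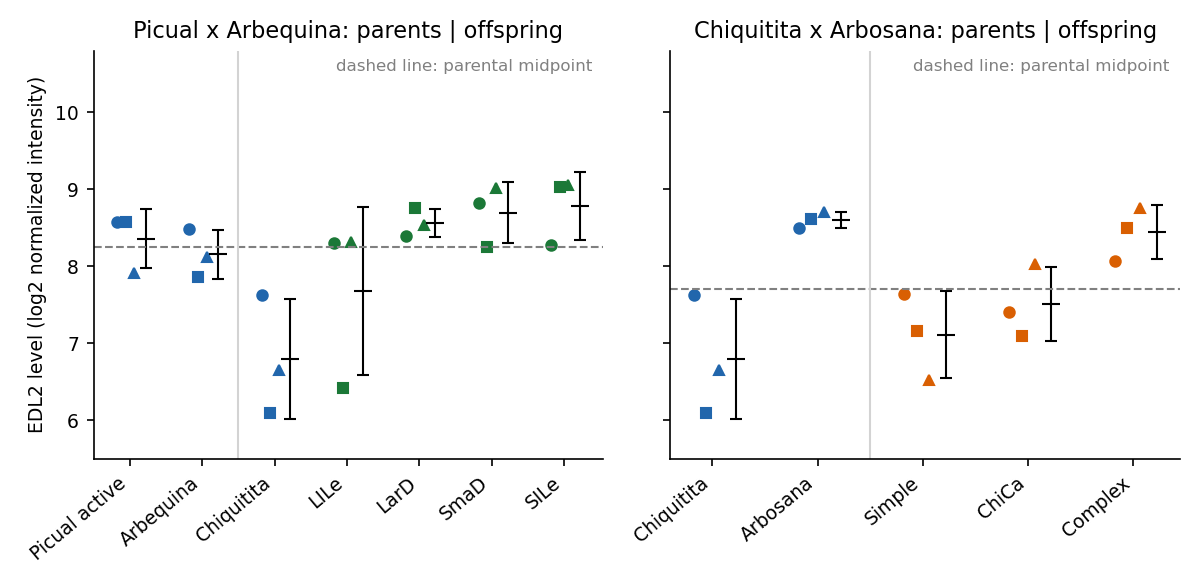
EDL2 level (log2 normalized intensity, vertical axis) in the parents, left of the grey line, and their offspring, right of it (horizontal axis), for both crosses; symbols give the replicate number as circle (1), square (2) and triangle (3), black bars the mean ± SD of 3 arrays, and the dashed line the parental midpoint. Chiquitita lies below both of its parents, and Simple, ChiCa and Complex lie at 0.17, 0.39 and 0.91 of the way from Chiquitita to Arbosana.

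The study names 13 other contigs, and 0 were called between SmaD and LarD or between Complex and Simple, where 0.0134% and 0.0561% of all contigs were called, so nothing is read from that count. Between Complex and Simple, 5 of the 13 were higher in Complex and 8 lower, with a median difference of -0.07 against -0.01 over all contigs. Most of the 13 did not follow EDL2 across groups. Over the 12 group means, the nearest was SPY (Contig_10295), in Arabidopsis a repressor of gibberellin responses, with Pearson's r of 0.771, and it was likewise lowest in Chiquitita but highest in Arbosana. DWF4 (Contig_61776), an enzyme of brassinosteroid synthesis, ran the other way at r of -0.853, highest in Chiquitita and lowest in dormant Picual. The remaining 11 had r from -0.633 to 0.267 over the group means. Over the 36 arrays r was 0.517 for SPY and -0.667 for DWF4, and over the deviations from the group means 0.207 and -0.324. The 12 points come from related genotypes and share the normalization, so these r values are a description. The study picked SPY and DWF4, like EDL2, by a difference between Chiquitita and Arbosana. Part of their r to EDL2 may therefore belong to that choice, and how much was not tested.

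Among the 25024 contigs whose group means spanned at least 2-fold, 18 had r of 0.9 or more to EDL2 over the 12 group means, and 36 had r of -0.9 or less. The 5 closest were Contig_14987 (r = 0.934), Contig_53939 (0.930), Contig_14409 (0.929), Contig_60240 (0.925) and Contig_9654 (0.924). All of them were lowest in Chiquitita and highest in dormant Picual, as EDL2 was, though with narrower spans of 2.05-fold to 3.46-fold. These 5 were ranked by r over the same group means, so the shared ends follow largely from that ranking. Their group means lay between 4.17 and 7.80 on the log2 scale, below every array median, and their height above background is not known. These 5 contigs did not follow EDL2 from replicate to replicate, with r of deviations from the group means between -0.158 and 0.201. The most opposite contigs were Contig_20610 (r = -0.941), Contig_66911 (-0.941) and Contig_28653 (-0.935), all lowest in dormant Picual. Their levels there were 3.27, 5.53 and 10.2 on the log2 scale. The files give these contigs no gene name. The choice of the 5 was loose, since Spearman's rho in place of Pearson's r kept 1 of them, as did leaving out dormant Picual.

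**Figure D5:**
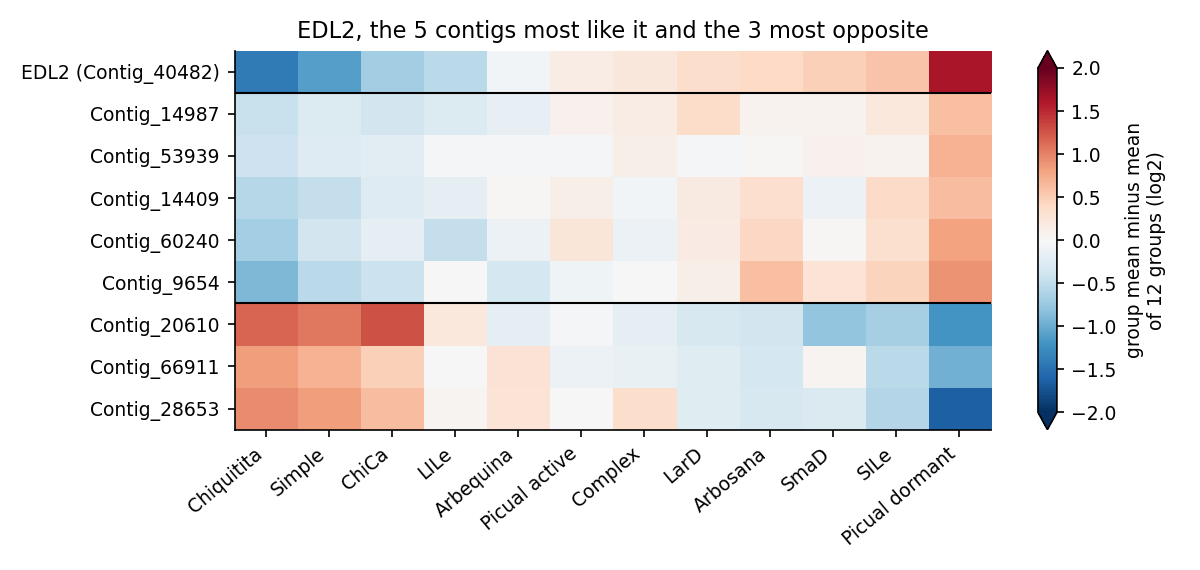
Group mean minus the mean of the 12 groups on the log2 scale (colour, blue below and red above) for EDL2, the 5 contigs most like it and the 3 most opposite (vertical axis) over the 12 groups in the order of EDL2 (horizontal axis). EDL2 has the wider range among the like contigs. All 5 of these are lowest in Chiquitita and highest in dormant Picual, which follows largely from their choice by r over these group means.

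Contig_15201 had the highest r to EDL2 over the 36 arrays among the 25024 contigs, and is named here after its values were seen. It was picked by that measure, so its closeness from array to array follows from the choice. Its r to EDL2 was 0.844 over the 36 arrays, 0.912 over the 12 group means and 0.557 over the deviations from them. Its own group means spanned 94.3-fold, from 6.10 on the log2 scale in Chiquitita to 12.66 in dormant Picual. It was also low in Simple at 6.24 and higher in Complex at 8.18 and in Arbosana at 9.63. Its order was not that of EDL2 throughout, since LILe at 9.33 exceeded Complex and active Picual at 10.74 exceeded Arbosana.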

How the data were processed

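Labelled RNA of olive shoot tips was hybridised to NimbleGen arrays, 36 in all. The authors normalized the scans with RMA, and the deposited intensity is 1 linear value per contig and array; the RMA version, background step and pooling of probes are not given in the sources used here. Each column was given its sample by its identifier. A further deposited table of raw signals has 36 columns that no label ties to a sample, and it was left aside. The log2 of the deposited intensities was taken. EDL2 was tested with limma 3.58.1 (lmFit and eBayes, R 4.3.3) in 2 fits over all 37449 contigs, 1 of SmaD, LarD and Chiquitita and 1 of ChiCa, Complex and Simple, with 3 arrays a group, no covariate and no filter. The fitted differences of ChiCa from Complex and Simple are given as descriptions, since ChiCa levels took part in choosing the gene. Benjamini-Hochberg adjustment ran over every contig, and a call needed a 2-fold or larger difference with adjusted p below 0.05. The fitting was run on simulated data with noise independent between arrays and with changes larger than the tested EDL2 differences. That run does not cover spread shared between replicates. Intervals are at the 95% level. Likeness was Pearson's r over group means among contigs spanning at least 2-fold, and the named contigs are those of the study with the 5 most like and the 3 most opposite. Python 3.11.15, numpy 2.4.6, pandas 2.3.3 and matplotlib 3.10.9 served for summaries and plots. The gene, the groups and the lists were chosen with earlier results of these data known. Alternatives covered the arrays in the fit, normalization, a filter on dim contigs, a replicate block, the variance model, array weights, the methods' t-test and each replicate left out, and the SILe and LILe means without 1 array were added after seeing the data. Contig positions, probe sequences and other members of the light signalling pathway were not analysed here.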

Additional observations from a re-analysis of the deposited data

How the results depend on the processing

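The 10 described EDL2 differences kept their sign under all 100 alternatives. These alternatives reuse the same arrays, and some of the groups took part in choosing the gene. The smallest value was 0.025, for Arbosana minus active Picual without active replicate 3. The tested differences, and the untested ones of ChiCa from Complex and Simple, kept their direction under every alternative but 1: SmaD minus LarD went to -0.0248 without SmaD replicate 3. With 1 array left out, it ranged from -0.0248 to 0.36, Complex minus Simple from 1.04 to 1.60, ChiCa minus Complex from -1.19 to -0.72 and ChiCa minus Simple from 0.11 to 0.67. The methods' t-test without adjustment passed EDL2 between Complex and Simple, at 1.33 on log2 values and 1.29 on linear values. In limma no setting called EDL2 in either tested comparison, with adjusted p for Complex minus Simple between 0.252 and 0.745. Over the limma settings the contigs called ranged from 0 to 3709 for SmaD minus LarD, with the highest under array weights, and from 3 without Complex replicate 1 to 134 without Simple replicate 3 for Complex minus Simple; the cause was not tested.

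Same-numbered arrays of Complex and Simple had r of deviations from -0.349 to 0.369, so their numbers were not taken as pairs. Those of SmaD and LarD had 0.464, 0.488 and 0.0829, and since the last fell short of the 0.1 asked of every pair, pairing is not established there. With the replicate number as a block the EDL2 differences stayed at 0.14 and 1.33, with limma adjusted p of 0.880 and 0.546, and the contigs called went from 5 to 1 and from 21 to 5. ChiCa minus Complex and ChiCa minus Simple likewise stayed at -0.93 and 0.40 with the block. Of the 5 contigs most like EDL2, 0 were shared with the list over the 36 arrays and 1 with each of the lists by Spearman's rho, without SILe replicate 3 and without dormant Picual. With 3 arrays a group and no background signal examined, small differences and the lowest levels stay uncertain.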
